A study of Homo sapiens with 12 samples.

Results

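RNA polymerase II (Pol II) and the general transcription factors TFIIA, TFIIB, TFIID, TFIIE, TFIIF and TFIIH start transcription at protein-coding genes, and the transcripts of 40 genes that encode them were followed in MOLT4 cells. The 40 genes were listed by name, with earlier results of these data known. They are 12 Pol II subunits and 28 general factor subunits, of 23621 genes in the deposited table. MOLT4 is a long-established human line of T-cell acute lymphoblastic leukemia. Cells were kept for 6 h in vehicle (0.1% DMSO) or in 250 nM of a compound (SNS-032, its derivative THAL-SNS-032, or NVP-2), with 3 libraries in each of the 4 groups and 12 libraries in all. SNS-032 inhibits several cyclin-dependent kinases, CDK9 among them, NVP-2 inhibits CDK9, and THAL-SNS-032 carries SNS-032 joined by a linker to a thalidomide-type ligand of the ubiquitin ligase receptor cereblon. A group is thus 1 cell line at 1 dose and 1 time, and the labels do not say whether its 3 libraries came from separate cultures. The p-values take in no more than the spread of libraries within groups, pooled over the 4 groups. That spread may be technical.

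As background, TFIID, which holds the TATA-binding protein TBP and the TBP-associated factors (TAFs), recognises the promoter. TFIIA steadies that contact, TFIIB bridges TBP and Pol II, and TFIIF travels with Pol II. TFIIE then brings in TFIIH, which opens the DNA with its helicase ERCC3 and phosphorylates the repeated C-terminal tail of POLR2A through its kinase CDK7. CDK9 phosphorylates the same tail and pausing factors soon after initiation, when Pol II is released into the gene. The proteins studied here are therefore the machine on which CDK9 acts, and what was measured is the level of their own transcripts.

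Levels are FPKM as deposited, a measure of fragments per length of transcript, on a scale that the authors set. On that scale the libraries held equal amounts of the ERCC control RNAs that went in at lysis. For every library the median change of 31 such RNAs from the DMSO mean lay between -0.031 and 0.039 on the log2 scale. The table holds no counts, so read depth is unknown. All 40 members were found in the table, and all 40 passed the filter of a mean of 1 FPKM over the 12 libraries, as did 11381 genes in all. Differences are between group means of log2(FPKM + 1), a scale that understates changes of low genes, and were tested with limma over all 11381 genes. A gene was called at a Benjamini-Hochberg adjusted p under 0.05. In bulk RNA, fewer cells and less RNA per cell cannot be told apart. Markers fitted the label: 11 of 11 T-lineage genes read between 24.1 and 2045 FPKM in DMSO. Of the B-lineage markers 1 of 4 was above 1 FPKM (CD79A, 9.07), and 0 of 4 myeloid, 0 of 2 erythroid and 0 of 3 epithelial markers were.

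In DMSO the members lay between 13.0 and 396 FPKM, with a median of 89.5. The highest were POLR2J, whose product binds that of POLR2C in the assembly of the enzyme (396 ± 60.4 FPKM, SD, n = 3, as in all values given with ±), POLR2G, which forms the Pol II stalk (382 ± 30.7), and TAF9, a histone-fold subunit of TFIID (326 ± 16.4). The lowest were GTF2H5, the smallest TFIIH subunit (13.0 ± 0.546), TAF3, whose PHD finger binds methylated histone H3 (15.9 ± 1.23), and TAF1, the largest TFIID subunit (16.4 ± 1.48). The 7 subunits that belong to Pol II alone had a median of 152 FPKM and the 5 that it shares with Pol I and Pol III had one of 203, against 61.2 for the 28 general factors. By GENCODE 29 the exons of 16 members overlap exons of another gene on the opposite strand, and those of 5 of the 16 (POLR2C, POLR2D, GTF2H3, TAF9 and TAF10) also on the same strand. Whether counting used strand is not given in the sources used here, so the levels of these members are uncertain.

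**Figure D1:**
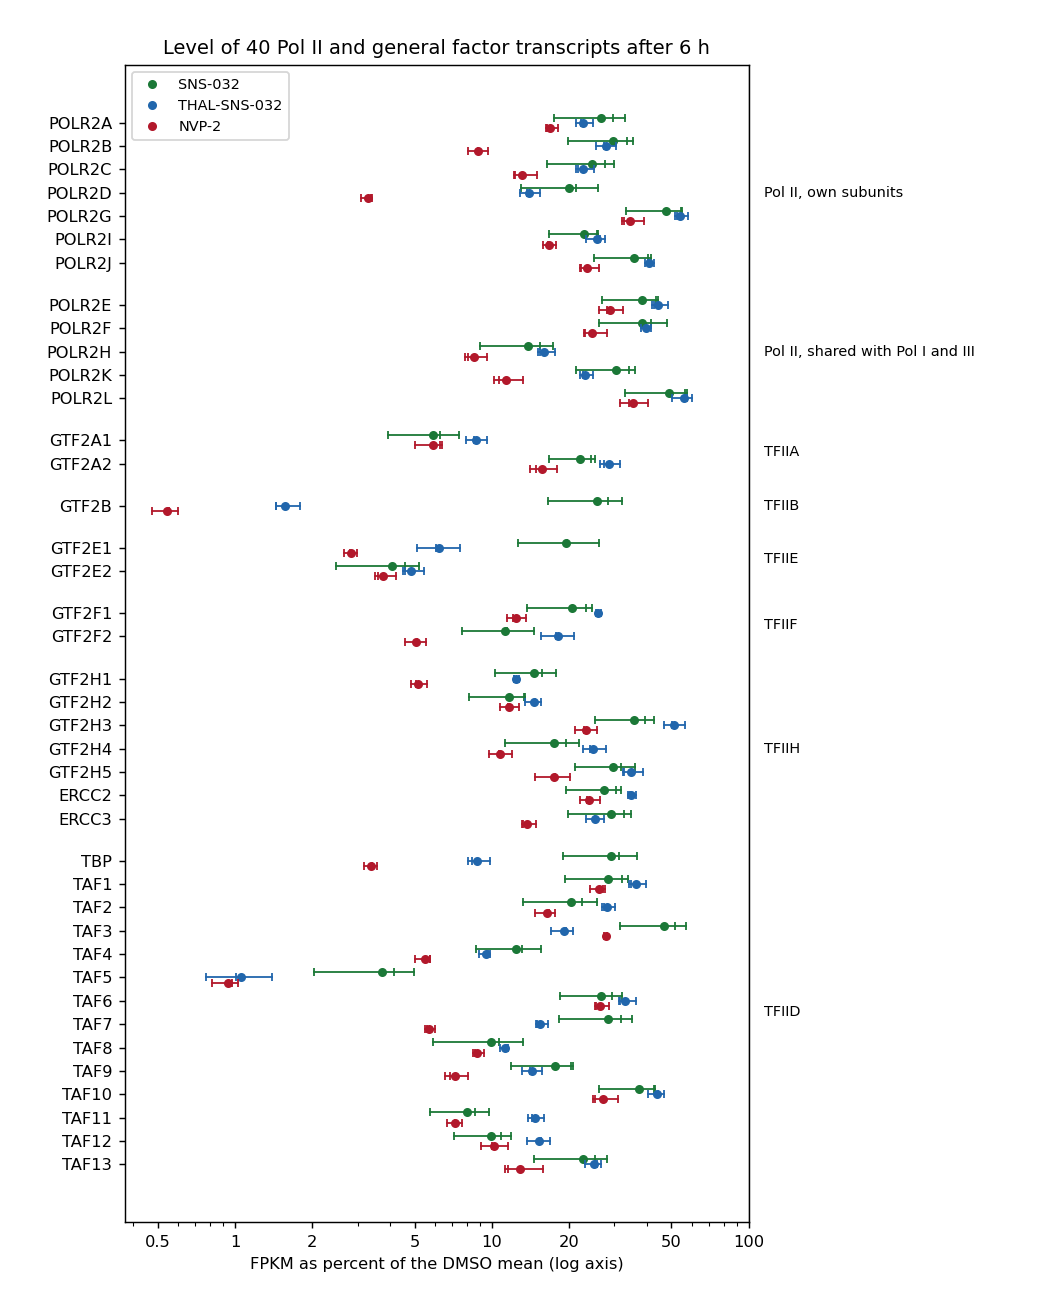
Level of each of the 40 transcripts as a percent of its DMSO mean, on a log axis, grouped by complex. Points are group means of 3 libraries, ticks the single libraries and lines their range. The members spread from 0.543% (GTF2B with NVP-2) to 55.9% (POLR2L with THAL-SNS-032) on the deposited scale, which is not centred.

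Every member was lower with each compound than with DMSO. With SNS-032 all 40 were called lower and 0 higher, beside 94.6% and 1.54% of all tested genes. With THAL-SNS-032 the counts were again 40 and 0, beside 94.8% and 1.37%, and with NVP-2 they were 40 and 0, beside 97.1% and 0.448%. With almost every gene called lower, these counts are near the background and set the 40 members apart from nothing. They depend on the scale too: after each library was centred on its own median, 20 members were called higher and 14 lower with SNS-032, beside 52.6% and 31.1% of all tested genes. For THAL-SNS-032 these counts were 23 and 17, beside 57.2% and 29.2%, and for NVP-2 they were 17 and 16, beside 59.7% and 28.1%. Centring moved the median of all tested genes from -1.92, -1.90 and -2.54 to 0.25, 0.36 and 0.42 for the 3 compounds in that order. The median differences of the members were -2.07, -2.05 and -2.89, and 0.10, 0.20 and 0.066 after centring. Without centring 22, 26 and 25 of the 40 members lay below the median of all tested genes.

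What remained of each transcript shows the spread among members more plainly. The median member stood at 23.7% of its DMSO mean with SNS-032, at 22.9% with THAL-SNS-032 and at 12.02% with NVP-2, against 22.1%, 22.1% and 12.1% for all tested genes. The 12 Pol II subunits stood at medians of 30.0%, 26.7% and 16.8%, and the 28 general factors at 20.4%, 16.7% and 10.5%. Under 10% of the DMSO level were 6, 7 and 16 members, all of them general factors except 3 with NVP-2 (POLR2B, POLR2D and POLR2H). Of all tested genes 14.1%, 18.8% and 40.7% were that low. One library stood apart. SNS-032 replicate 1 was the lowest of its group for 40 of 40 members, with a member median of 16.6% of DMSO against 27.8% in replicates 2 and 3. The library was low beyond the members. Its median log2 level over all tested genes lay at -2.61 from the DMSO mean, against -1.87 and -2.03 in replicates 2 and 3.

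The large catalytic subunits of Pol II fell with all 3 compounds. POLR2A stood at 41.2, 50.7 and 54.8 FPKM under DMSO, at 8.53, 16.1 and 14.5 under SNS-032, at 10.4, 12.1 and 10.8 under THAL-SNS-032 and at 7.91, 8.86 and 8.02 under NVP-2. POLR2A is the largest subunit and carries the C-terminal tail. Every treated library was below every DMSO library, and among the treated ones SNS-032 replicate 1 lay within the range of the NVP-2 libraries. The differences from DMSO were -1.86, -2.04 and -2.42 (SE 0.20 each). POLR2B stood at 140, 155 and 162 FPKM under DMSO, at 30.1, 53.8 and 51.2 under SNS-032, at 38.8, 46.4 and 41.6 under THAL-SNS-032 and at 12.3, 14.7 and 13.5 under NVP-2. POLR2B forms the active site together with POLR2A. Here the NVP-2 libraries lay below all other libraries, and those of SNS-032 and THAL-SNS-032 overlapped. The differences from DMSO were -1.78, -1.83 and -3.40 (SE 0.20 each). By the likeness of median-centred log2 levels over the 12 libraries, the gene most like POLR2A outside the 40 was POMT1 (r = 0.99), followed by HIST1H2BI, HIST1H4E, GUSBP3 and TXNDC5 (r = 0.96 each). These values describe 12 libraries that fall into 4 groups.

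Among the smaller subunits the 2 of the stalk kept unlike shares. POLR2D and POLR2G form a heterodimer that sits beside the RNA exit channel. POLR2D stood at 102, 115 and 117 FPKM under DMSO, at 14.5, 28.8 and 23.7 under SNS-032, at 15.2, 17.1 and 14.3 under THAL-SNS-032 and at 3.44, 3.75 and 3.80 under NVP-2. POLR2G stood at 348, 393 and 406 FPKM under DMSO, at 127, 209 and 210 under SNS-032, at 197, 221 and 201 under THAL-SNS-032 and at 125, 149 and 123 under NVP-2. POLR2D in NVP-2 lay below every library of the other groups, while POLR2G was the best kept of the subunits found in Pol II alone. POLR2D fell by 2.32, 2.77 and 4.59 (SE 0.20 each) and POLR2G by 1.10, 0.88 and 1.53 (SE 0.20 each), in the same order of compounds. POLR2L stood at 231, 292 and 280 FPKM under DMSO, at 88.1, 153 and 151 under SNS-032, at 135, 160 and 154 under THAL-SNS-032 and at 91.8, 109 and 84.1 under NVP-2. POLR2L, which all 3 nuclear polymerases share, was the best kept member with each compound, at 48.9%, 55.9% and 35.5% of DMSO. It fell by 1.06, 0.83 and 1.49 (SE 0.21 each), and all 9 treated libraries stayed below the lowest DMSO library.

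The other shared subunits were POLR2E, POLR2F, POLR2H and POLR2K. POLR2H was the least kept of the 5 shared ones, at 13.9%, 16.01% and 8.49% of DMSO in the same order of compounds. POLR2E kept 38.4%, 44.4% and 28.9%, and POLR2K kept 30.4%, 23.1% and 11.4%. POLR2F kept 38.6%, 39.8% and 24.6%. Of the subunits of Pol II alone that remain, POLR2C kept 24.6%, 22.6% and 13.1%, POLR2I kept 22.7%, 25.8% and 16.7%, and POLR2J kept 35.8%, 41.04% and 23.4%. POLR2J has the near copies POLR2J2, POLR2J3 and POLR2J4 in the table, and how reads were divided among them is not given in the sources used here, so its level is uncertain.

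TFIIB held the widest contrast between compounds. TFIIB is a single protein, encoded by GTF2B. GTF2B stood at 73.7, 74.9 and 86.6 FPKM under DMSO, at 13.02, 25.2 and 22.1 under SNS-032, at 1.13, 1.14 and 1.41 under THAL-SNS-032 and at 0.372, 0.472 and 0.435 under NVP-2. The 4 groups did not overlap: SNS-032 left GTF2B at 25.6% of DMSO, THAL-SNS-032 at 1.56% and NVP-2 at 0.543%. The differences from DMSO were -1.96, -5.16 and -5.80 (SE 0.20 each). With THAL-SNS-032 this difference had rank 34 from the lowest among the 11381 tested genes, with NVP-2 rank 50 and with SNS-032 rank 5493.

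The promoter-recognition factor TBP followed the same order of compounds at a smaller size. TBP stood at 41.1, 37.5 and 42.6 FPKM under DMSO, at 7.67, 14.8 and 12.6 under SNS-032, at 3.25, 3.97 and 3.38 under THAL-SNS-032 and at 1.28, 1.38 and 1.44 under NVP-2. Again no group overlapped another. The differences from DMSO were -1.75, -3.19 and -4.13 (SE 0.19 each).

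**Figure D2:**
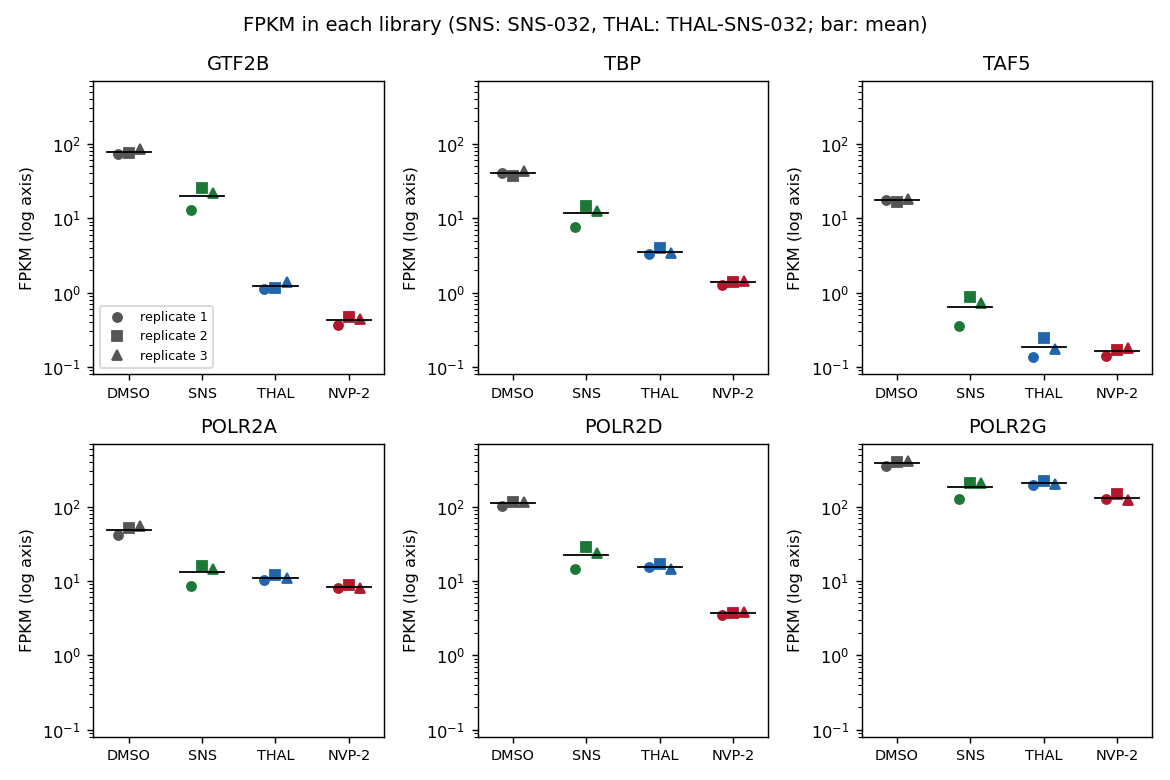
FPKM of GTF2B, TBP, TAF5, POLR2A, POLR2D and POLR2G in each of the 12 libraries, on a log axis that is the same in every panel. Symbols are replicates and bars are means of 3. GTF2B drops to between 1.13 and 1.41 with THAL-SNS-032 and to between 0.372 and 0.472 with NVP-2, while POLR2G stays above 120 in every library.

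TFIID subunits ranged from the most to nearly the least reduced members. TAF5 is a WD40-repeat subunit at the centre of the complex. TAF5 stood at 17.8, 16.6 and 17.9 FPKM under DMSO, at 0.353, 0.868 and 0.727 under SNS-032, at 0.135, 0.243 and 0.175 under THAL-SNS-032 and at 0.141, 0.170 and 0.179 under NVP-2. All treated libraries were far below DMSO, and those of THAL-SNS-032 and NVP-2 overlapped. The THAL-SNS-032 and NVP-2 values are close to a single value, between 0.0910 and 0.104 FPKM by library, that at least 4201 gene names share in each library. The differences from DMSO were -3.49, -3.96 and -3.99 (SE 0.13 each). All treated values of TAF5 were under the added 1 FPKM, so these differences understate its change on a ratio scale. TAF3 stood at 14.7, 15.8 and 17.2 FPKM under DMSO, at 5.04, 9.04 and 8.23 under SNS-032, at 3.10, 3.30 and 2.70 under THAL-SNS-032 and at 4.35, 4.45 and 4.46 under NVP-2. TAF3 was the only member whose mean was lowest with THAL-SNS-032, and its THAL-SNS-032 libraries lay below those of both other compounds. It fell by 1.04, 2.07 and 1.64 (SE 0.17 each). TAF1 stood at 16.2, 15.1 and 18.03 FPKM under DMSO, at 3.17, 5.55 and 5.29 under SNS-032, at 5.71, 6.57 and 5.63 under THAL-SNS-032 and at 3.94, 4.52 and 4.45 under NVP-2. TAF1 fell by 1.65, 1.32 and 1.72 (SE 0.17 each), and the THAL-SNS-032 libraries were the highest treated ones.

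The remaining TAFs are described by the share they kept. TAF10, a histone-fold subunit that TFIID shares with the coactivator SAGA, was the best kept TAF with THAL-SNS-032, at 43.8% of DMSO. TAF6 kept 26.6%, 32.98% and 26.4%, and TAF2 kept 20.4%, 28.1% and 16.3%. TAF13 kept 22.6%, 25.1% and 12.9%. TAF4, TAF8, TAF11 and TAF12 stood with SNS-032 at 12.4%, 9.93%, 8.03% and 9.96% of DMSO. With NVP-2 they stood at 5.51%, 8.77%, 7.16% and 10.2%. TAF9 kept 17.6%, 14.3% and 7.16%. The gene that overlaps TAF9 on the same strand is AK6.

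TFIIE and TFIIA each held a subunit that was among the most reduced members with SNS-032. GTF2E2, the smaller TFIIE subunit, was the most reduced member with SNS-032 in difference of log2 values. GTF2E2 stood at 86.02, 91.1 and 100 FPKM under DMSO, at 2.28, 4.80 and 4.24 under SNS-032, at 4.17, 5.05 and 4.24 under THAL-SNS-032 and at 3.25, 3.91 and 3.32 under NVP-2. The SNS-032 libraries overlapped those of both other compounds, and the highest treated library read 5.05. The differences were -4.33, -4.09 and -4.38 (SE 0.19 each). GTF2A1 stood at 45.3, 44.5 and 48.1 FPKM under DMSO, at 1.81, 3.43 and 2.88 under SNS-032, at 3.63, 4.41 and 3.93 under THAL-SNS-032 and at 2.32, 2.94 and 2.89 under NVP-2. GTF2A1 encodes the precursor that is cut into the larger TFIIA subunits. It fell by 3.69, 3.24 and 3.66 (SE 0.17 each), with overlapping SNS-032 and NVP-2 libraries, and its small partner GTF2A2 kept 22.04%, 28.4% and 15.6% of DMSO.

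TFIIH joins a core with 2 helicases to a kinase module. ERCC3 stood at 58.9, 66.6 and 70.4 FPKM under DMSO, at 12.9, 22.6 and 21.3 under SNS-032, at 15.1, 17.9 and 16.5 under THAL-SNS-032 and at 8.65, 9.71 and 8.53 under NVP-2. ERCC3, the DNA translocase that opens the promoter, fell by 1.77, 1.92 and 2.73 (SE 0.19 each), and the NVP-2 libraries lay below all others. GTF2H3 stood at 35.1, 35.7 and 38.4 FPKM under DMSO, at 9.13, 15.6 and 14.3 under SNS-032, at 16.96, 20.6 and 18.3 under THAL-SNS-032 and at 7.66, 9.34 and 8.31 under NVP-2. GTF2H3, a core subunit, fell by 1.45, 0.93 and 1.99 (SE 0.18 each) and was among the best kept members with THAL-SNS-032. ERCC2, the second helicase, kept 27.2%, 34.9% and 23.98%, GTF2H1 kept 14.6%, 12.4% and 5.17%, and GTF2H4 kept 17.5%, 24.8% and 10.8%. GTF2H5 kept 29.6%, 34.7% and 17.5%. GTF2H2 (11.6%, 14.6% and 11.7%) has the near copies GTF2H2B, GTF2H2C and GTF2H2D, so its level is uncertain.

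The kinase module of TFIIH was not among the 40, and its 3 genes fell as well. CDK7 stood at 42.7, 43.1 and 44.6 FPKM under DMSO, at 2.53, 5.19 and 4.52 under SNS-032, at 1.21, 1.48 and 1.16 under THAL-SNS-032 and at 0.578, 0.639 and 0.719 under NVP-2. CDK7 is the kinase itself, and its 4 groups did not overlap. Its cyclin CCNH went from 66.1 ± 6.80 FPKM in DMSO to 6.50 ± 1.85, 6.08 ± 0.588 and 2.98 ± 0.244 in the same order of compounds. The assembly factor MNAT1 went from 60.1 ± 5.004 to 8.96 ± 3.30, 12.7 ± 0.600 and 4.48 ± 0.0441. All 3 were called lower with each compound, with median differences of -3.17, -3.24 and -4.07, and none was called higher after centring. MNAT1 kept 14.9%, 21.1% and 7.46% of DMSO, more than the core subunit GTF2H1 with each compound, while CDK7 kept 9.39%, 2.95% and 1.49%.

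THAL-SNS-032 and SNS-032, which differ by the linker and the cereblon ligand, were compared at the same dose and time. Of the 40 members 6 were called lower with THAL-SNS-032, where 16.7% of all tested genes were, and 4 higher, where 13.4% were. The other 30 did not pass, and for all 30 the 95% interval stayed inside 2-fold either way. Over all 40 members 33 had such an interval, beside 76.9% of all tested genes. Centring each library gave 10 lower and 25 higher, beside 23.1% and 51.2% of all tested genes, and all 6 and all 4 kept their direction. The 6 lower members were GTF2B, TBP, the TFIIE subunit GTF2E1, and TAF3, TAF5 and TAF7. No Pol II subunit was called in either direction, with differences from -0.45 (POLR2D) to 0.25 (POLR2H). After centring 2 of the 12 were called lower (POLR2D and POLR2K) and 7 higher, and without SNS-032 replicate 1 the counts were 5 lower (POLR2A, POLR2B, POLR2C, POLR2D and POLR2K) and 0 higher. GTF2B differed by -3.20 (SE 0.20, adjusted p = 1.16e-07, limma), which is 16.4-fold in mean FPKM. TBP differed by -1.44 (SE 0.19, adjusted p = 4.8e-05, limma).

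GTF2E1, the larger TFIIE subunit, came next. GTF2E1 stood at 22.5, 24.6 and 26.7 FPKM under DMSO, at 3.11, 6.43 and 4.83 under SNS-032, at 1.49, 1.86 and 1.26 under THAL-SNS-032 and at 0.654, 0.736 and 0.690 under NVP-2. All THAL-SNS-032 libraries were below all SNS-032 libraries (-1.16, SE 0.18, adjusted p = 0.000281, limma). TAF3, given above, differed by -1.03 (SE 0.17, adjusted p = 0.000471, limma). TAF7 stood at 138, 148 and 153 FPKM under DMSO, at 26.7, 51.5 and 46.7 under SNS-032, at 21.6, 24.3 and 21.9 under THAL-SNS-032 and at 8.19, 8.82 and 8.03 under NVP-2. TAF7, which binds TAF1, differed by -0.80 (SE 0.21, adjusted p = 0.00914, limma), again without overlap. TAF5 was the last of the 6 on this scale, at -0.47 (SE 0.13). Its means were 0.649 FPKM with SNS-032 and 0.184 with THAL-SNS-032, where the added 1 FPKM shrinks a difference. In mean FPKM this was 3.52-fold, against 3.31 for TBP, 3.12 for GTF2E1, 2.45 for TAF3 and 1.84 for TAF7. The THAL-SNS-032 values of TAF5 are close to the shared low value given above.

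The 4 higher members were TAF11, GTF2F2, TAF12 and GTF2H3. TAF11 stood at 79.4, 81.8 and 93.6 FPKM under DMSO, at 4.86, 8.28 and 7.30 under SNS-032, at 11.7, 13.5 and 12.1 under THAL-SNS-032 and at 5.66, 6.49 and 6.08 under NVP-2. TAF11, the histone-fold partner of TAF13, was higher with THAL-SNS-032 in every library than with SNS-032 (0.81, SE 0.17, adjusted p = 0.00294, limma). GTF2F2 stood at 92.7, 94.2 and 95.2 FPKM under DMSO, at 7.18, 13.7 and 10.8 under SNS-032, at 14.6, 19.6 and 16.7 under THAL-SNS-032 and at 4.31, 5.23 and 4.81 under NVP-2. GTF2F2, the smaller TFIIF subunit, differed by 0.67 (SE 0.20), also without overlap. TAF12 stood at 78.1, 88.3 and 97.9 FPKM under DMSO, at 6.28, 9.55 and 10.5 under SNS-032, at 13.6, 14.8 and 12.1 under THAL-SNS-032 and at 8.81, 10.1 and 8.02 under NVP-2. TAF12, the fold partner of TAF4, differed by 0.59 (SE 0.18), and GTF2H3 by 0.51 (SE 0.18). These counts depend on SNS-032 replicate 1, which was low for all members and in the median of all tested genes. Without it 15 members were lower with THAL-SNS-032, where 30.1% of all tested genes were, POLR2A (-0.43), POLR2B (-0.31), POLR2D (-0.72) and ERCC3 (-0.40) among them, and the same 4 were higher, where 13.2% were. The calls of GTF2B, TBP, GTF2E1, TAF3, TAF7 and TAF11 held under all 23 alternatives. Those of GTF2F2 and TAF12 held in 20, of TAF5 in 20 of the 22 that tested it, and that of GTF2H3 in 12.

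**Figure D3:**
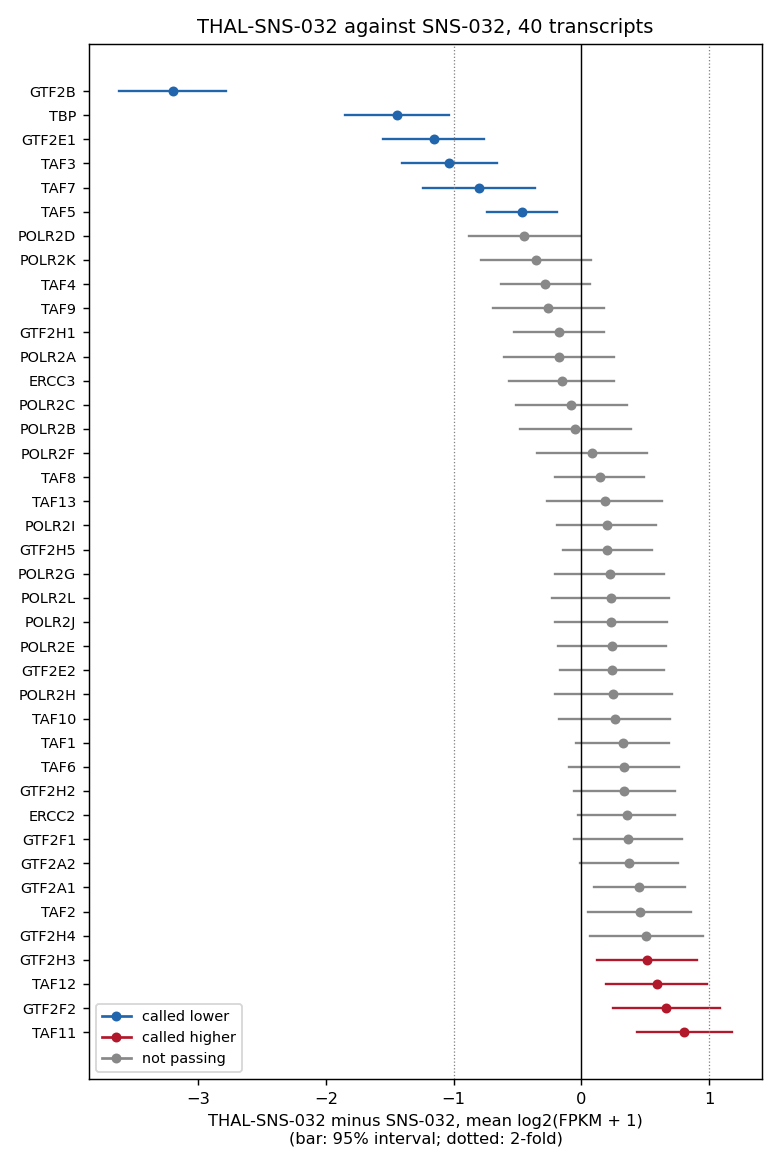
Difference between THAL-SNS-032 and SNS-032 for the 40 transcripts in mean log2(FPKM + 1), with 95% intervals from the limma fit, ordered by size. GTF2B stands alone at -3.20, and the 30 grey intervals all lie between the dotted 2-fold lines. Centring each library moves further members past the threshold on both sides.

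The promoters of the 6 members called lower with THAL-SNS-032 in this comparison are shown, so that members that moved together can be read side by side, as the 120 bases before the start site, read 5′ to 3′ on the strand of the gene. Sequences are RefSeq's, on GRCh38.p14. Capitals mark 3 motifs searched on both strands: the TATA-box core TATAAA, the CCAAT box and, as the third, the GC box GGGCGG. A match on the other strand shows its complement in capitals.
GTF2B: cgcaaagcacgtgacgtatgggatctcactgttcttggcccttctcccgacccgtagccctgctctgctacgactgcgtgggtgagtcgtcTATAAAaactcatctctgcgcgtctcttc
TBP: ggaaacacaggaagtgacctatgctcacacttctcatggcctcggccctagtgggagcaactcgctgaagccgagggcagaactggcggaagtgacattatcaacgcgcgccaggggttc
GTF2E1: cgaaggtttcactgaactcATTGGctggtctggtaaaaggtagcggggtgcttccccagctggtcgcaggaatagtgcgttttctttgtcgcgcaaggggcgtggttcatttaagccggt
TAF3: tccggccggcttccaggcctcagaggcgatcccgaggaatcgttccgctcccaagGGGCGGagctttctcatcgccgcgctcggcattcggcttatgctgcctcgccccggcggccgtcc
TAF7: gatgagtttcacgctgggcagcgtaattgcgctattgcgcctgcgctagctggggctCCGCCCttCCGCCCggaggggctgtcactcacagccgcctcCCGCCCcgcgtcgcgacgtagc
TAF5: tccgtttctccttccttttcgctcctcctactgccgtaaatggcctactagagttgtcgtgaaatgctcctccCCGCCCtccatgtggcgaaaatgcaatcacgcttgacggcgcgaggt
They lie at chr1:88891568-88891687 (- strand) for GTF2B, chr6:170554249-170554368 (+ strand) for TBP, chr3:120742624-120742743 (+ strand) for GTF2E1, chr10:7818385-7818504 (+ strand) for TAF3, chr5:141320785-141320904 (- strand) for TAF7 and chr10:103367856-103367975 (+ strand) for TAF5. GTF2B has TATAAA with its first base 29 bases before the start, and TATAAA is the core of the TATA box, the element that TBP binds. GTF2E1 has CCAAT on the other strand, 101 bases before the start, and TBP has none of the 3 in this stretch. TAF3 and TAF5 hold GGGCGG once, at 65 and 47 bases, and TAF7 holds it at 63, 55 and 22 bases.

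Over the 250 bases before the start, 33 of the 40 members had an entry, and 1 of the 33 held TATAAA, which was GTF2B, against 13.0% of 27305 genes with an entry. CCAAT was found in 8 members (24.2%, against 37.0% of those genes) and GGGCGG in 21 (63.6%, against 46.2%). A gene was counted here if any of its entries held the motif, and the 33 members had 42 entries. No motif contains another. A match is a string of letters, and binding was not measured here.

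Against NVP-2, members were mostly higher with the other compounds. THAL-SNS-032 left 32 of 40 higher than NVP-2, beside 70.0% of all tested genes, and 1 lower, beside 0.993%. The 7 that did not pass were POLR2A, GTF2E2, GTF2H2, TAF1, TAF5, TAF6 and TAF8, each with a 95% interval within 2-fold. Over all 40 members 14 had such an interval, beside 46.4% of all tested genes. The widest differences were POLR2D (1.82, SE 0.20), GTF2F2 (1.63, SE 0.20), POLR2B (1.58, SE 0.20) and TAF7 (1.34, SE 0.21), which all stayed higher after centring. TAF3 was the 1 lower member (-0.43, SE 0.17, adjusted p = 0.0391, limma), and its call was kept in 12 of 23 alternatives, whose adjusted p ranged from 1.09e-08 to 0.126. After centring 13 members were higher and 11 lower, beside 29.4% and 38.0% of all tested genes.

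SNS-032 left 25 of 40 higher than NVP-2, beside 52.6% of all tested genes, and 0 lower, beside 0.782%. After centring the split turned to 11 higher and 26 lower, beside 24.8% and 58.9% of all tested genes. Without SNS-032 replicate 1 the counts were 36 higher, beside 81.6%, and 0 lower, beside 0.756%. Without SNS-032 replicate 3 or NVP-2 replicate 1 they were 16 higher and 0 lower. Of the 11381 tested genes 4586 and 4655 were then higher, and 87 and 69 lower. GTF2B differed by 3.84 (SE 0.20, adjusted p = 2.43e-09, limma), TBP by 2.38 (SE 0.19), POLR2D by 2.27 (SE 0.20), TAF7 by 2.14 (SE 0.21) and GTF2E1 by 1.73 (SE 0.18), and all 5 stayed higher after centring. All 15 that did not pass had intervals within 2-fold either way. Over all 40 members 21 had such an interval, beside 57.5% of all tested genes. Among the 15, the differences of GTF2A1 (-0.024), GTF2H2 (-0.036), TAF6 (-0.025) and TAF12 (-0.053) were negative, and the others were positive. In mean level 22 members stood in the order THAL-SNS-032, SNS-032, NVP-2 from high to low and 14 in the order SNS-032, THAL-SNS-032, NVP-2. GTF2A1, GTF2H2 and TAF12 were lowest with SNS-032. These orders rest on SNS-032 replicate 1. Without it 16 members stood in the first order and 23 in the second, and GTF2A1, GTF2H2 and TAF12 were lowest with NVP-2 (SNS-032 minus NVP-2 was 0.16, 0.19 and 0.15, and none passed). As given above, 30 members did not pass between THAL-SNS-032 and SNS-032 and 15 did not between SNS-032 and NVP-2. Many neighbours in these orders thus did not differ beyond their spread. The share of all tested genes in each order was not counted, with or without SNS-032 replicate 1. The counts of orders therefore set the members apart from nothing.

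Transcripts of subunits that bind each other were also compared within libraries. The ratio of 2 transcripts within a library does not change with the scaling of that library. It was taken for 12 pairs of known partners, which were chosen after levels had been seen, so the ratios are descriptions. In SNS-032 the 3 libraries lay wholly above or below DMSO for 9 pairs, in THAL-SNS-032 for 12 and in NVP-2 for 11. Of all 64757890 pairs of tested genes 82.4%, 84.8% and 84.9% did so in the same order of compounds. Group means differed from DMSO by more than 2-fold for 5, 6 and 6 pairs, beside 49.7%, 54.3% and 55.7% of all pairs. Counts like these set partner genes apart from nothing, and the single ratios follow as values.

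With NVP-2 the ratio farthest from DMSO among the 12 was that of the stalk pair. POLR2G/POLR2D was 3.40, 3.41 and 3.48 in the DMSO libraries and 36.2, 39.7 and 32.4 with NVP-2, a mean 10.5 times that of DMSO. With SNS-032 the mean was 2.42 times and with THAL-SNS-032 3.89 times that of DMSO. All treated libraries exceeded all DMSO libraries.

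For GTF2E1/GTF2E2, TAF10/TAF3 and POLR2A/POLR2B, 1 compound left all libraries above DMSO and another left all below. The share of all pairs of tested genes that do so was not counted, so this sets partner genes apart from nothing. GTF2E1/GTF2E2 was 0.262, 0.270 and 0.267 in DMSO and 1.37, 1.34 and 1.14 with SNS-032. It was 0.356, 0.368 and 0.296 with THAL-SNS-032 and 0.201, 0.188 and 0.208 with NVP-2. The mean was thus 4.82 times that of DMSO with SNS-032 and 0.749 times with NVP-2, with no overlap between any of the 4 groups.

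Within TFIID, TAF1/TAF7 was 0.112 ± 0.00930 under DMSO, 0.113 ± 0.00545 under SNS-032, 0.264 ± 0.00721 under THAL-SNS-032 and 0.516 ± 0.0368 under NVP-2. SNS-032 libraries overlapped DMSO for this pair and the other compounds did not. TAF6/TAF9 was 0.324 ± 0.0375 under DMSO, 0.492 ± 0.0265 under SNS-032, 0.751 ± 0.0237 under THAL-SNS-032 and 1.20 ± 0.0471 under NVP-2, with no overlap between any 2 groups. TAF10/TAF8 was 13.4 ± 1.44 under DMSO, 52.3 ± 7.87 under SNS-032, 52.5 ± 4.45 under THAL-SNS-032 and 41.1 ± 2.99 under NVP-2, so all 9 treated libraries lay above those of DMSO. TAF10/TAF3 lay above DMSO with THAL-SNS-032 (31.5, 33.9 and 39.4, against 14.1, 15.9 and 15.2 in DMSO) and lay below it with SNS-032 (12.5, 11.5 and 12.5). With NVP-2 it overlapped DMSO.

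The ratio of the catalytic pair POLR2A/POLR2B was 0.320 ± 0.0234 under DMSO, 0.289 ± 0.00914 under SNS-032, 0.263 ± 0.00363 under THAL-SNS-032 and 0.613 ± 0.0241 under NVP-2. It overlapped DMSO with SNS-032, lay below it in all THAL-SNS-032 libraries and above it in all NVP-2 libraries. GTF2A2/GTF2A1 stood at 3.84, 3.28 and 2.65 times its DMSO mean in the order used above, and TAF13/TAF11 at 2.79, 1.71 and 1.79 times. GTF2F1/GTF2F2 stood at 1.84, 1.46 and 2.44 times and POLR2J/POLR2C at 1.47, 1.82 and 1.79 times. TAF4/TAF12 was 1.24 times DMSO with SNS-032, where libraries overlapped, and 0.619 and 0.542 times with the other compounds.

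**Figure D4:**
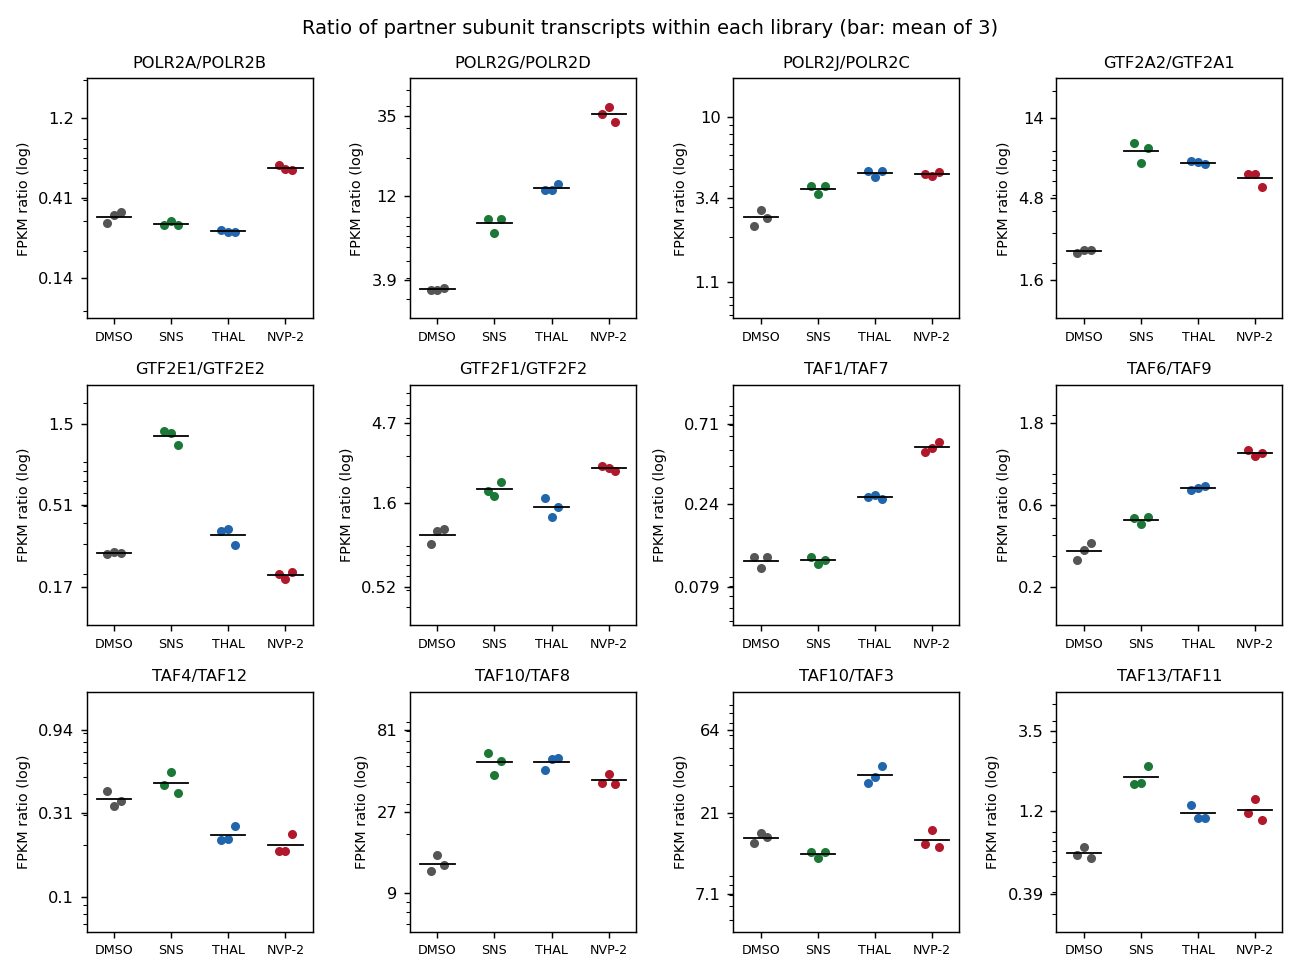
Ratio of 2 partner transcripts in each library for 12 pairs, by group, on log axes of equal span. Points are libraries and bars are means of 3. POLR2G/POLR2D climbs to between 32.4 and 39.7 with NVP-2, and GTF2E1/GTF2E2 lies between 1.14 and 1.37 with SNS-032 and between 0.188 and 0.368 in every other library.

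Gene length was set beside these levels as a description. Across the 40 members the Spearman correlation of gene span (GENCODE 29) with the percent of DMSO remaining was -0.24 for SNS-032, -0.33 for THAL-SNS-032 and -0.27 for NVP-2, against -0.038, 0.0060 and -0.0048 over 10441 tested genes. Within the 28 general factors the 3 values were nearer 0, at -0.10, -0.21 and -0.15. Genes are not independent, and the 3 values share the DMSO libraries.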

How the data were processed

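Per the labels' protocols, ERCC control RNAs went into the lysate, and stranded libraries were made from poly(A) RNA. Per the submitters' processing notes the authors used HISAT, Cufflinks 2.0.0 and hg19. The annotation is not given in the sources used here. The deposited table gives 1 FPKM value per gene and library, on a scale that the authors set; the part the control RNAs had in it is not given in the sources used here. Of 23713 entries, 92 were ERCC RNAs and were set aside, which left 23621 gene rows (23619 names, 28 of them turned into dates), and 11381 with a mean of 1 FPKM or more were tested.

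The scale was kept as deposited. One limma 3.58.1 fit with trend in R 4.3.3 on log2(FPKM + 1), over the 4 groups with 8 residual degrees of freedom, was used for 6 two-sided comparisons (3 of a compound with DMSO, 3 between compounds), with Benjamini-Hochberg adjustment over all tested genes in each. The spread is pooled, so the wide SNS-032 group adds to every SE. The script was tested on simulated data. Promoters came from RefSeq (GRCh38.p14) and spans from GENCODE 29, used without coordinates because the files use hg19. Ratios and figures were made in Python 3.11.15 (pandas 2.3.3, scipy 1.17.1, matplotlib 3.10.9).

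The members, the related gene lists and the tests were chosen with earlier results of these data known. Named were all members by level, those with the 3 largest and 3 smallest falls per compound, a fixed set (POLR2A, POLR2B, GTF2B, TBP, TAF1 and ERCC3) and up to 5 called members per direction and compound pair. The partner pairs and the differences outside this rule (TAF5, POLR2A, POLR2B, POLR2D, POLR2H and ERCC3 between compounds, and members that did not pass) were picked after values were seen. Alternatives were limma with robust set or with trend off, a pseudocount of 0.1 or of 5, a filter at 5 FPKM or none, libraries centred on their medians or set to equal ERCC medians, a fit to the 6 libraries compared alone, a replicate block, adjustment over all 6 comparisons, and each replicate left out.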

Additional observations from a re-analysis of the deposited data

How the results depend on the processing

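Of the 23 alternatives, 22 left every tested member called lower than DMSO with each compound (39 members reached a mean of 5 FPKM, 40 were tested otherwise). Centring each library on its own median did not: 14, 17 and 16 members were called lower and 20, 23 and 17 higher with the 3 compounds (SNS-032 first, NVP-2 last), with medians of 0.10, 0.20 and 0.066. By its construction, centring turns a fall smaller than the shift of the library medians into a positive value. The median of all tested genes was itself 0.25, 0.36 and 0.42 after it. A positive value thus need not mean a smaller fall than that of the median gene. GTF2B with SNS-032 stood at -1.96 before centring, beside a median of -1.92. With SNS-032 centring gave POLR2A 0.31, POLR2B 0.39, POLR2G 1.07, POLR2L 1.11, GTF2B 0.21, ERCC3 0.40, TBP 0.42, TAF1 0.52 and TAF3 1.14. With THAL-SNS-032 it gave POLR2A 0.22, POLR2B 0.43, POLR2G 1.37, POLR2L 1.43, GTF2H3 1.32, ERCC3 0.33 and TAF1 0.93. With NVP-2 it gave POLR2A 0.54, POLR2G 1.43, POLR2L 1.47, ERCC3 0.23, TAF1 1.25 and TAF3 1.32. Between compounds it gave 10 lower and 25 higher for THAL-SNS-032 against SNS-032 (POLR2B 0.038), 11 and 13 for THAL-SNS-032 against NVP-2 (median -0.0063, POLR2A -0.32, GTF2B -0.065, TAF1 -0.31), and 26 and 11 for SNS-032 against NVP-2 (median -0.22, POLR2A -0.23, TAF1 -0.72).

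A pseudocount of 5 moved the member medians from DMSO to -1.76, -1.75 and -2.37, and that of THAL-SNS-032 against NVP-2 to 0.58, and 0.1 moved the NVP-2 median to -3.05. With only the 6 libraries of a pair, 1 member was higher with THAL-SNS-032 than SNS-032 and 15 were higher with SNS-032 than NVP-2. Of the 11381 tested genes 507 and 4783 were. Adjusting over all 6 comparisons gave 7 higher with THAL-SNS-032 than SNS-032, beside 2286 of the 11381 tested genes. The 1 lower member with THAL-SNS-032 against NVP-2 became 0 with a pseudocount of 5 or without a filter.

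Leaving out 1 library at a time gave 5 to 15 members lower and 1 to 7 higher with THAL-SNS-032 than SNS-032. Of the 11381 tested genes 1479 to 3424 were lower and 614 to 2765 higher. The member median went from -0.025 (without SNS-032 replicate 1) to 0.34. The POLR2B difference went from -0.31 to 0.10 (0.10, 0.066 and 0.010 without SNS-032 replicate 2, SNS-032 replicate 3 and THAL-SNS-032 replicate 1). Leaving out 1 library gave 0 to 1 member lower with THAL-SNS-032 than NVP-2, beside 74 to 232 tested genes. It gave 16 to 36 higher with SNS-032 than NVP-2, beside 4553 to 9292 tested genes. There TAF1 went from -0.049 to 0.28 (-0.049 and -0.020 without SNS-032 replicates 2 and 3). The cause of these changes was not tested. Depth is unknown, so no limit from counting can be given.

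The replicate numbers are shared by the groups only as numbers: in 0 of 6 pairs of groups was every correlation of same-numbered deviations over 0.1, and 5 of 12 libraries correlated best with their own number. A replicate block gave 7 members above SNS-032 with THAL-SNS-032, in place of 4. Of the 11381 tested genes it gave 2308, in place of 1525. It changed no other count of members by over 1.5 times.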

Other observations

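Counts of related genes called lower are read against 94.6%, 94.8% and 97.1% of all tested genes (SNS-032 first, NVP-2 last), and those called higher after centring against 52.6%, 57.2% and 59.7%, so a list that fell whole is near the background. All 19 tested subunits that belong to Pol I or Pol III alone were called lower with each compound (median differences -2.50, -2.96 and -3.65 for SNS-032, for THAL-SNS-032 and for NVP-2, and -0.33, -0.70 and -0.69 after centring, when 3 were called higher with each). Of 16 initiation factors of Pol I and Pol III, 15, 16 and 16 were lower, but 6 of them were called higher after centring with each compound. The exception was GTF3C4, a TFIIIC subunit, which read 12.5, 12.8 and 14.1 FPKM in DMSO and 10.1, 17.7 and 16.4 with SNS-032, which did not pass (0.12, SE 0.18). It read 3.74, 4.55 and 3.66 with THAL-SNS-032 and 1.11, 1.24 and 1.36 with NVP-2. BRF2, a relative of TFIIB that serves Pol III, read 24.2, 22.0 and 26.6 FPKM in DMSO and 1.76, 4.46 and 2.78 with SNS-032. With THAL-SNS-032 it read 0.389, 0.366 and 0.190, lower than with SNS-032 by a difference of -1.55 (SE 0.19, adjusted p = 2.99e-05, limma).

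Among relatives and copies of the members, 12 of 16 listed genes were tested and all 12 were lower with each compound, though 6, 6 and 7 of them were called higher after centring. TBPL1, a relative of TBP, differed by -2.05 (SE 0.21) between THAL-SNS-032 and SNS-032, and TAF5L, a relative of TAF5 that belongs to SAGA, by -1.82 (SE 0.20). These 2 of the 12 were called lower in that comparison, beside 16.7% of all tested genes, and the other 10 did not pass. The count is thus at the background and sets the relatives apart from nothing. Of 14 Pol II assembly factors and tail phosphatases, 14 were lower with each compound, and 4, 6 and 4 were higher after centring. All 3 TBP regulators were lower as well, with 3, 2 and 2 higher after centring.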
